A study of Mus musculus with 12 samples.

Results

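Costimulatory receptors and genes of regulatory T cells were compared between AND-TCR–transgenic and C57BL/6 thymocytes. The set held 10 genes, namely Izumo1r, Cd28, Ctla4, Icos, Pdcd1, Cd27, Tnfrsf4, Tnfrsf9, Tnfrsf18 and Il2ra. Every probe set annotated with 1 of these symbols and no other was taken, which gave 14 of the 36701 probe sets that were not Affymetrix controls and 10 of the 15964 symbols on the arrays. The AND-TCR transgene encodes a rearranged T cell receptor restricted by MHC class II. Total adult thymocytes of such mice, in which the receptor is positively selected in the H-2b background, were set against those of adult C57BL/6 mice, the wild type. Both groups had 2 hybridizations on each of the oligonucleotide arrays U74Av2, U74Bv2 and U74Cv2, 12 arrays in all. The authors state that they did 2 independent experiments. Neither they nor the labels say whether the first and the second hybridization came from separate mice. The p-values thus measure the spread between hybridizations, which may be technical. The sources used here give no age beyond adult, no number of mice and no promoter for the transgene.

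The deposited values were scaled intensities, and between 20.1% and 37.8% of those on an array were negative. A detection limit was taken from the negative values, at an intensity of 420.8 for U74Av2, of 869.4 for U74Bv2 and of 1579 for U74Cv2, and lower readings were raised to it ahead of the log2 transform. Testing required that 1 group or both exceed the limit on each of its arrays, which 12845 probe sets did. Where both arrays of a group lay under the limit, its difference from a higher group is given as a lower bound, and where 1 of them did, the difference is that with this array set to the limit. Differences are given as AND-TCR transgenic over C57BL/6 from limma on the log2 scale, so that a fold or ratio compares geometric means, with p-values adjusted over all 12845 probe sets. The number of arrays limits the precision. Hybridizations with the same number were run on the same day. Fluidics module 2 served every C57BL/6 array and module 4 every AND-TCR–transgenic array, so module and group cannot be told apart. Xist, expressed from the inactive X, read 2878.3 and 3001.2 in C57BL/6 and fell under the limit in AND-TCR–transgenic thymocytes, while the Y-linked Eif2s3y exceeded its limit on both AND-TCR–transgenic arrays and on neither C57BL/6 array, so sex and genotype cannot be told apart either. In total thymocytes, fewer cells of a type and less RNA per cell cannot be told apart.

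A T cell needs a second signal beside that of its antigen receptor, and costimulatory receptors supply it. CD28 and ICOS of the immunoglobulin superfamily promote activation, while CTLA4 and PD-1, the product of Pdcd1, restrain it. CD27, OX40 (Tnfrsf4), 4-1BB (Tnfrsf9) and GITR (Tnfrsf18) belong to the TNF receptor superfamily and signal through TRAF adaptors. Regulatory T cells, which suppress other T cells and arise in part in the thymus, carry CTLA4, GITR, OX40 and CD25, the alpha chain of the IL-2 receptor encoded by Il2ra. They also carry folate receptor 4, the product of Izumo1r, which on the egg is known as Juno and binds the sperm protein Izumo1.

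Of the 14 probe sets, 8 from 6 genes were tested, and 1, a probe set of Izumo1r, was higher in AND-TCR–transgenic thymocytes at an adjusted p under 0.05 in limma. None was lower. Over all tested probe sets, 1.05% passed the test, 0.483% as higher and 0.568% as lower. At an unadjusted p under 0.05 there were 2 member probe sets, both higher and both of Izumo1r, where 14% of all tested probe sets reached that level, 7.47% as higher and 6.51% as lower. The 8 tested probe sets had a median log2 fold change of 0.27, and all tested probe sets had one of 0.02. The median of the 8 includes Pdcd1 and a probe set of Izumo1r, which passed the filter only through the AND-TCR–transgenic arrays. The genes were also chosen with earlier results of these data known, so no shift of the set can be read from it. In 5 of the 8 the groups did not overlap, each time with both AND-TCR–transgenic arrays on top. For Pdcd1, with both C57BL/6 arrays raised to the limit, this followed from the filter. Of the Izumo1r pair, 1 probe set was also tested only because both AND-TCR–transgenic arrays exceeded the limit. Over all tested probe sets the groups did not overlap in 44.4%, with 23% higher and 21.4% lower in AND-TCR–transgenic thymocytes. The other 6 probe sets, which include all those of Ctla4, Icos, Tnfrsf9 and Il2ra, did not reach the detection limit on both arrays of either group.

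**Figure D1:**
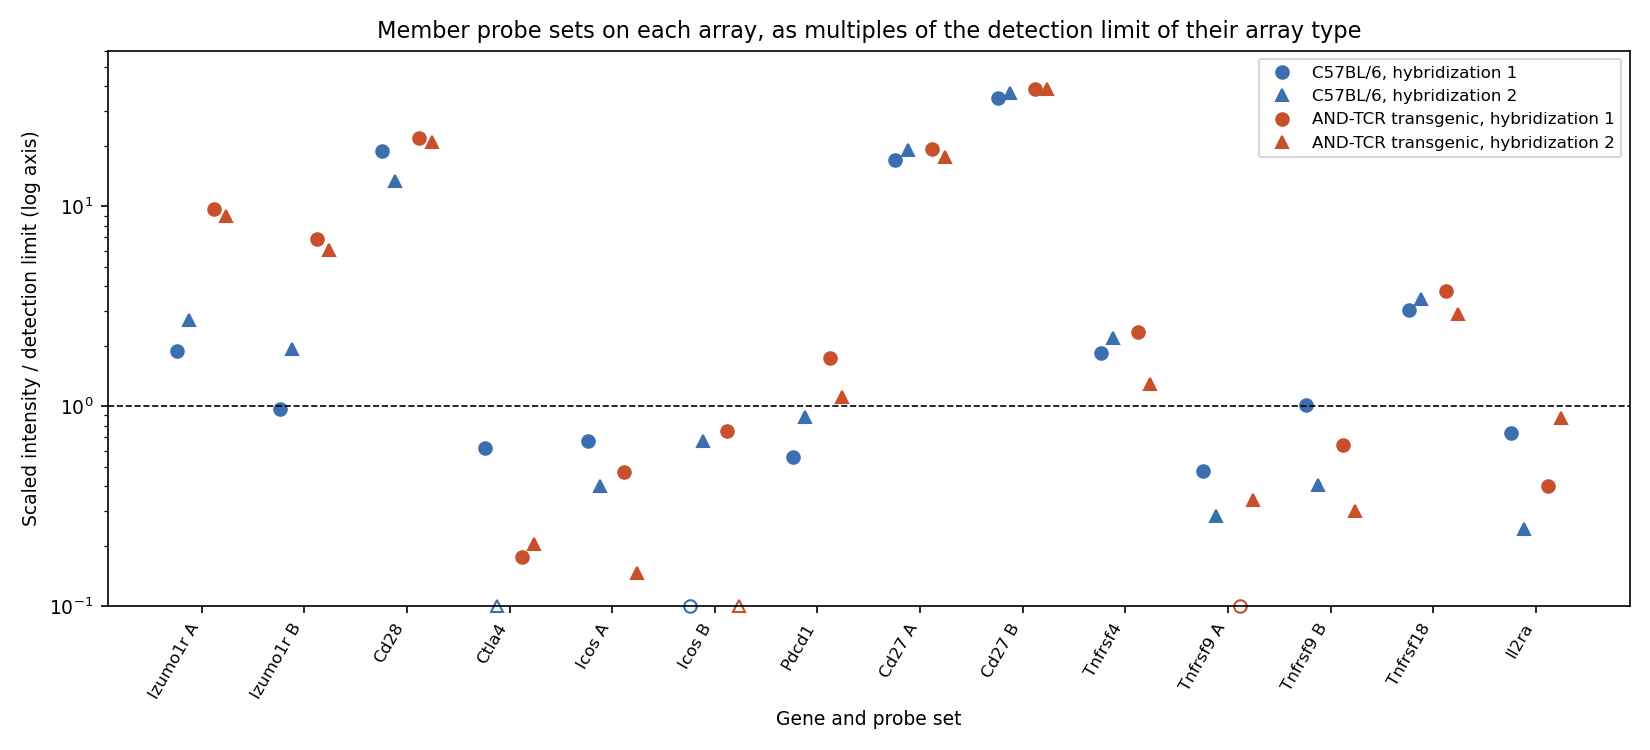
Scaled intensity of each of the 14 probe sets (x axis) on each array, as a multiple of the detection limit of its array type (y axis, log scale), with C57BL/6 in blue, AND-TCR transgenic in orange, circles for the first and triangles for the second hybridization. The dashed line is the limit, open symbols on the lower edge are values under 0.1 times the limit, and the Izumo1r arrays of AND-TCR–transgenic thymocytes lie between 6.06 and 9.67 times the limit against 0.97 to 2.72 times for C57BL/6.

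Izumo1r was measured by a pair of probe sets on U74Cv2, called A and B here. Probe set A read 2980.3 and 4287.1 in the C57BL/6 hybridizations and 15261.3 and 14202.9 in the AND-TCR–transgenic ones. The groups did not overlap, and the lower AND-TCR–transgenic array stood 3.31-fold above the higher C57BL/6 array. Its mean was 14732 ± 748 (SD, n = 2) in AND-TCR–transgenic and 3634 ± 924 (SD, n = 2) in C57BL/6 thymocytes, and the ratio of the geometric means was 4.12 (log2 fold change 2.04 with a standard error of 0.27, limma adjusted p = 0.0282). The 95% interval of the ratio ran from 2.64 to 6.42. Within the first day the ratio was 5.12 and within the second 3.31.

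The second probe set of Izumo1r gave a like picture with a less certain lower end. Probe set B read 1534.2 and 3036.8 in C57BL/6, where the first array lay just under the limit of 1579, and 10857.5 and 9571.2 in AND-TCR–transgenic thymocytes. Again both AND-TCR–transgenic arrays read above both C57BL/6 arrays. With that array set to the limit the ratio was 4.66 (log2 fold change 2.22, standard error 0.40), and its adjusted p of 0.0604 in limma missed the threshold. The ratio was at least 6.88 on the first day and 3.15 on the second. The log2 fold changes of the pair differed by 0.18, less than either standard error. Among the 2689 tested probe sets of U74Cv2, B ranked 4 and A ranked 5 by log2 fold change.

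The call for Izumo1r rested on the trend in the prior variance and on the adjustment over the array types together. Without any 1 hybridization the log2 fold change of probe set A stayed between 1.78 and 2.30. A group of 1 array has no spread of its own, so the call cannot be judged from these fits. The adjusted p was 0.0937 without a trend in the prior variance and 0.0859 when adjusted within U74Cv2. With the hybridization number as a replicate block, which is also the day, both probe sets passed in limma (adjusted p = 0.000114 for A and 0.000948 for B), as did 2.33% of all tested probe sets, 1.18% as higher and 1.15% as lower. That fit gave U74Cv2 2689 degrees of freedom, against 6.85 without the block, because limma then took 1 variance trend for all its probe sets, while the standard error of A rose from 0.27 to 0.39. The design class of both marks probe sets whose probes were not all unique to 1 sequence when the array was designed, so signal from related sequences cannot be told apart from that of Izumo1r.

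The start of the gene is shown beside those of Cd27, which was above the limit on all arrays without a called difference, and of Il2ra, which was under it on all arrays. Each stretch holds the 250 bases before the RefSeq transcription start (GRCm38.p6), 5′ to 3′ on the strand of the gene, and capitals mark every match to the motifs named after them. Izumo1r lies on the minus strand at chr9:14903768-14904017, Cd27 on the minus strand at chr6:125237028-125237277 and Il2ra on the plus strand at chr2:11642542-11642791.
Izumo1r: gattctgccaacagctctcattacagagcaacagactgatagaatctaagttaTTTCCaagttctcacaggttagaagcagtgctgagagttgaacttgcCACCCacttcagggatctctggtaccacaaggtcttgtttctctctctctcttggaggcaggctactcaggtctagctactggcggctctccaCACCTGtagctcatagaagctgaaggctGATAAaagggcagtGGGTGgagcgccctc
Cd27: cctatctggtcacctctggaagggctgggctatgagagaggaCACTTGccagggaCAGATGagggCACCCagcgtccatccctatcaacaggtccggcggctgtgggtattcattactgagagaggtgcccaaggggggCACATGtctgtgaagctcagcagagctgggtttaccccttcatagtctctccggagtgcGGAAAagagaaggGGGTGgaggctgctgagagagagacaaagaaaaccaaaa
Il2ra: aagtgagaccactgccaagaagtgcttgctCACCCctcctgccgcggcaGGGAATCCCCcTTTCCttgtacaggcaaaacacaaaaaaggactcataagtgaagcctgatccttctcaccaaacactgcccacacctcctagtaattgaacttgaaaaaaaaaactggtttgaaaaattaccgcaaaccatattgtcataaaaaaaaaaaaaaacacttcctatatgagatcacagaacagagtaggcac

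The stretches were searched on both strands for GGAAA (core of NFAT sites), GATAA (GATA factors), CANNTG (E-box), CACCC (KLF factors), TGANTCA (AP-1), TTCNNNGAA (STAT factors), TGTTTAC (forkhead factors) and the NF-kappaB motif, which is GGGA and CC with any 4 bases between. No match overlapped another in these 3 stretches. Izumo1r held 1 match to GGAAA, 1 to GATAA, 1 to CANNTG and 2 to CACCC, and Cd27 held 1, 0, 3 and 2 of the same. Il2ra held 1 match to GGAAA, 1 to CACCC and 1 to the NF-kappaB motif. The other motifs had no match in the 3 stretches. Of 32851 stretches of the same length from all genes, 55.6% held GGAAA, 22.6% GATAA, 66.2% CANNTG, 52.0% CACCC, 17.6% the NF-kappaB motif, 6.75% TGANTCA, 7.02% TTCNNNGAA and 3.17% TGTTTAC. These counts describe the letters only.

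The genes with the pattern nearest to that of Izumo1r probe set A over the 4 arrays of U74Cv2 were sought among 1284 genes above the limit on all 4, by the root mean square difference of log2 values after each probe set was centred on its mean. The nearest was 2610005L07Rik at 0.16, with readings of 2609.7 and 3408.9 in C57BL/6 and 9959.5 and 10110 in AND-TCR–transgenic thymocytes. It was followed by Bach2, a transcriptional repressor of lymphocytes, at 0.25, Fbxw9 at 0.31, Sting1, an adaptor of DNA sensing, at 0.36 and the kinase Tnik at 0.40. These genes were picked for their likeness to Izumo1r on the same arrays, so positive differences followed from the choice. Of these 5, Bach2 passed the test (log2 fold change 1.56 with a standard error of 0.25, limma adjusted p = 0.0458). The other 4 had log2 fold changes from 1.26 to 1.75 and adjusted p from 0.0517 to 0.162.

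Cd28 encodes the main costimulatory receptor of naive T cells. Its probe set on U74Av2 read 7991.6 and 5631.8 in C57BL/6 and 9204.6 and 8835.1 in AND-TCR–transgenic thymocytes. Both AND-TCR–transgenic arrays read above both C57BL/6 arrays, although the C57BL/6 arrays lay further from each other than the first C57BL/6 array lay from either AND-TCR–transgenic one. The ratio was 1.34 (log2 fold change 0.43 with a standard error of 0.19, limma adjusted p = 0.383), with a 95% interval from 0.988 to 1.83 that leaves out a 2-fold difference. Within the first day it was 1.15 and within the second 1.57. With the replicate block its unadjusted p was 0.0152 and its adjusted p 0.227.

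Among the inhibitory receptors of the same superfamily, Pdcd1 read 233.8 and 371.6 in C57BL/6, under the limit of 420.8 on both arrays, and 736.5 and 467.3 in AND-TCR–transgenic thymocytes, above it on both. Its ratio was at least 1.39 (log2 fold change 0.48 with a standard error of 0.29, limma adjusted p = 0.524), with at least 1.75 on the first day and at least 1.11 on the second. The difference did not pass the test, and the second AND-TCR–transgenic array exceeded the limit by little. Ctla4 read 260.7 and -66.8 in C57BL/6 and 74 and 86.2 in AND-TCR–transgenic thymocytes, all under the limit.

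Icos, a relative of Cd28 that is induced on activated T cells, was under the limit at both of its probe sets. On U74Av2 it read 281.1 and 168.2 in C57BL/6 and 198.5 and 61.8 in AND-TCR–transgenic thymocytes, and on U74Bv2 -768.9 and 580.7 against 655.1 and -4.8. No order of the groups can be read from these values. In the GRCm38.p6 annotation Cd28, Ctla4 and Icos follow each other on chromosome 1 with no other protein-coding gene between them, and of these neighbours only Cd28 was above the limit.

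Among the TNF receptors, Cd27, which supports the expansion and survival of T cells, was above the limit on every array. Its probe set A read 7187.3 and 8018.6 in C57BL/6 and 8105.4 and 7421.6 in AND-TCR–transgenic thymocytes, so that the groups overlapped. Its probe set B read 14659.1 and 15518.1 against 16316.7 and 16322.1, where both AND-TCR–transgenic arrays were higher. The ratios were 1.02 (95% interval 0.809 to 1.29, adjusted p = 0.952 from limma) and 1.08 (95% interval 0.880 to 1.33, adjusted p = 0.753 from limma). Both probe sets were designed on the same cDNA record and are not independent measurements. Both intervals lie within 2-fold in either direction.

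Tnfrsf4 and Tnfrsf18, whose products OX40 and GITR are costimulatory receptors abundant on regulatory T cells, lie next to each other among the protein-coding genes of chromosome 4. Tnfrsf18 read 1270.2 and 1443.2 in C57BL/6 and 1581.2 and 1214.9 in AND-TCR–transgenic thymocytes. The groups overlapped, with a ratio of 1.02 (95% interval 0.620 to 1.69, adjusted p = 0.977 from limma), and the ratio was 1.24 within the first day and 0.842 within the second. Tnfrsf4 read 776.4 and 925.8 in C57BL/6 and 992.8 and 542.4 in AND-TCR–transgenic thymocytes, with a ratio of 0.866 (95% interval 0.463 to 1.62, adjusted p = 0.866 from limma). It too turned between the days, at 1.28 and then 0.586. In both genes the second AND-TCR–transgenic array was the lowest of the 4.

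Tnfrsf9, induced upon T cell activation, was close to the background. Its probe set A read 198.9 and 119.2 in C57BL/6 and 13.4 and 143.8 in AND-TCR–transgenic thymocytes, all under the limit of 420.8. Its probe set B read 425.8 and 169.6 against 268.7 and 126.6. The first of these values was the only one above the limit among the 24 readings of the 6 untested probe sets.

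Il2ra encodes the chain that gives the IL-2 receptor its high affinity, and marks early thymocytes as well as regulatory T cells. It read 309.2 and 103.0 in C57BL/6 and 168.3 and 369.6 in AND-TCR–transgenic thymocytes, under the limit on all 4 arrays and with no separation of the groups. The beta chain Il2rb was above the limit of 869.4 at its U74Bv2 probe set, with 984.6 and 1060.8 against 1251.2 and 1284.9 (log2 fold change 0.31, adjusted p = 0.524 from limma). Its U74Av2 probe set read 162.8 and 503.8 against 276.3 and 889.6. It was not tested, as the first array of each group lay under the limit. Il2, the ligand, was under the limit on all 4 arrays.

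**Figure D2:**
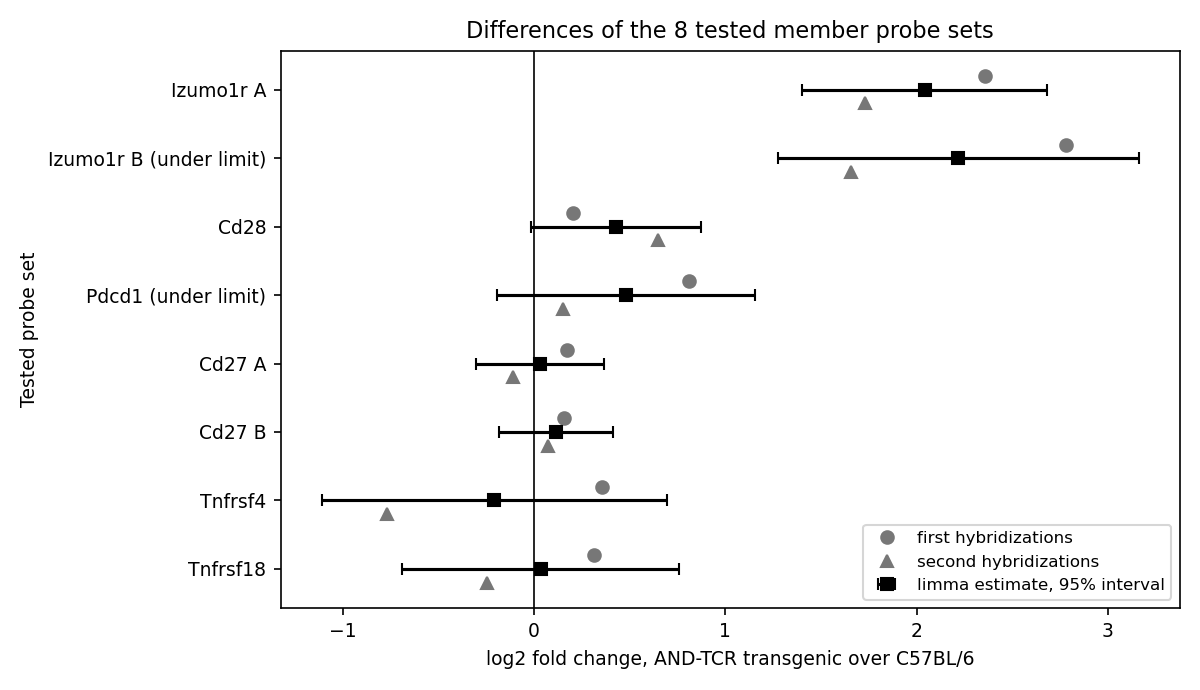
Log2 fold change, AND-TCR transgenic over C57BL/6 (x axis), for the 8 tested probe sets (y axis). Squares are the limma estimates with their 95% intervals, circles and triangles are the ratios of the first and the second hybridizations, and "under limit" marks probe sets with at least 1 C57BL/6 array under the limit, which was set to it. The intervals of Izumo1r start at 1.40 for A and 1.28 for B, and those of the others include 0.

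**Figure D3:**
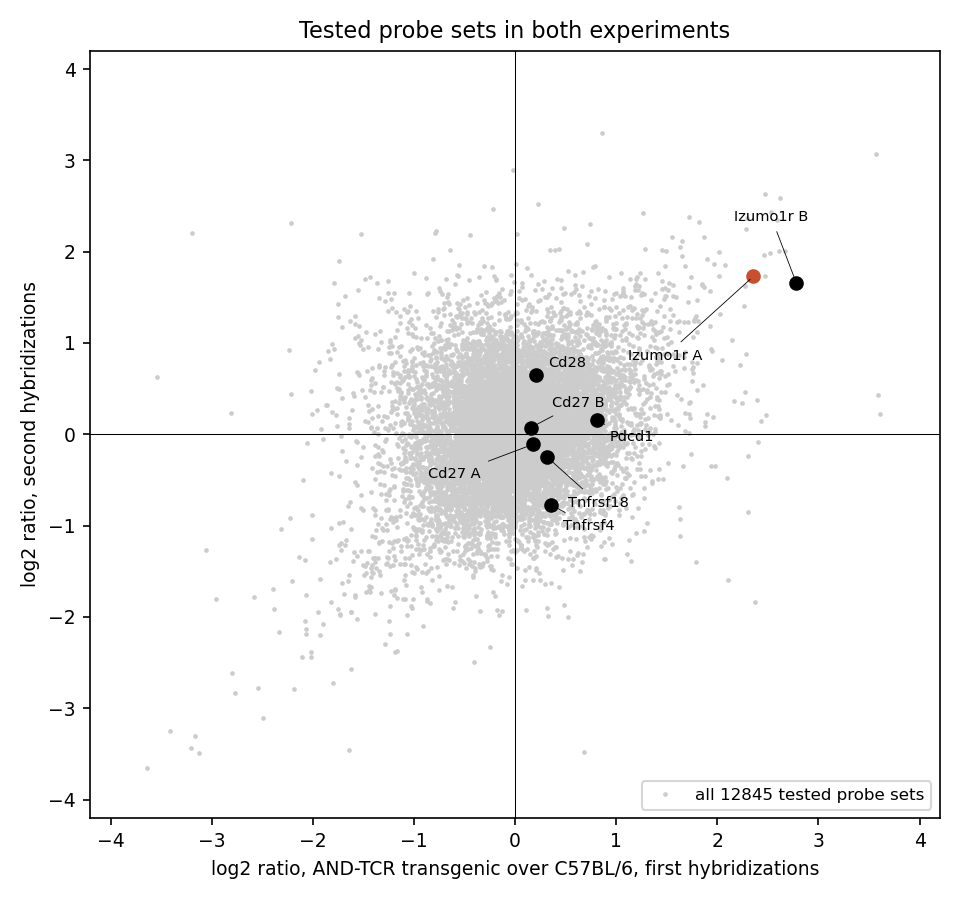
Log2 ratios (AND-TCR transgenic over C57BL/6) of the first hybridizations on the x axis and of the second on the y axis, with all 12845 tested probe sets in grey, of which 1 lies outside the axes. The 8 probe sets of the costimulatory and regulatory genes are in black, or in orange for the 1 that passed the test. The Izumo1r probe sets lie at 2.36 and 2.78 on the x axis and at 1.73 and 1.66 on the y axis, while Tnfrsf4, Tnfrsf18 and Cd27 A change sign between the experiments.

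Over the 8 tested probe sets, 5 kept their direction in both experiments and 3 did not. Those that did were the Izumo1r pair, Cd28, Pdcd1 and Cd27 probe set B, all with positive values. Pdcd1 and Izumo1r probe set B were tested only because both AND-TCR–transgenic arrays exceeded the limit. With C57BL/6 readings raised to the limit, both ratios of Pdcd1 and the first ratio of Izumo1r probe set B could only be positive. The share of all tested probe sets that kept their direction was not counted, so these counts describe the members only. The spread within a group also differed among the members. From the first to the second hybridization the log2 value of Izumo1r probe set B moved by at least 0.94 in C57BL/6, where its first array was under the limit, and that of probe set A by 0.52. That of Tnfrsf4 moved by -0.87 in AND-TCR–transgenic and that of Cd28 by -0.50 in C57BL/6 thymocytes, while Cd27 probe set B moved by 0.08 in C57BL/6 thymocytes.

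Other costimulatory and coinhibitory receptors of T cells were followed through a list of 20 genes, of which 9 had 11 tested probe sets. In limma 1 of these was higher, 0 were lower and the remaining 10 made no call, while 5 were higher and none was lower at an unadjusted p under 0.05. The higher one was Cd2, an adhesion and costimulatory receptor, which read 7081.6 and 7580.6 in C57BL/6 and 14230.8 and 13355.5 in AND-TCR–transgenic thymocytes (log2 fold change 0.91 with a standard error of 0.13, limma adjusted p = 0.0330). The inhibitory receptor Btla read 819.6 and 954.6 against 2433.6 and 2888.4, with 1 of its C57BL/6 arrays under the limit, and missed the threshold (log2 fold change 1.54 with that array set to the limit, standard error 0.28, limma adjusted p = 0.0834). Cd5, an inhibitor of TCR signals, had a log2 fold change of 0.44 (adjusted p = 0.255 from limma). Cd96 went the other way (log2 fold change -0.57, adjusted p = 0.488 from limma). Values for Tnfrsf1b, Slamf1 and a probe set of Cd6 were also negative, at -0.17, -0.15 and -0.14. The 11 probe sets had a median log2 fold change of 0.26.

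Of the ligands, 16 genes were listed and 3 had a tested probe set, 4 in all. None passed the test in limma and 1 was higher at an unadjusted p under 0.05. It belonged to Cd274, a ligand of PD-1, which read 882.1 and 914.8 against 1288.9 and 1232.8 (log2 fold change 0.49, adjusted p = 0.261). Another 9 genes, among them the CD28 ligands Cd80 and Cd86, the OX40 ligand Tnfsf4 and the CD27 ligand Cd70, did not reach the limit on both arrays of either group.

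Of 32 genes for signal proteins downstream of these receptors, 25 had 40 tested probe sets. In limma 1 was lower, none was higher and 39 did not pass, with 9 higher and 5 lower at an unadjusted p under 0.05 and a median log2 fold change of -0.02. Socs1, whose product inhibits cytokine signals, fell, with 6409.6 and 8356.6 in C57BL/6 and 2740.7 and 2552.1 in AND-TCR–transgenic thymocytes (log2 fold change -1.47, adjusted p = 0.0213). Prkcq, the kinase that links CD28 and the TCR to NF-kappaB, had log2 fold changes of 0.86 and 1.11 at its 2 tested probe sets (adjusted p = 0.132 and 0.0692 from limma). Pik3cd, a catalytic subunit of phosphoinositide 3-kinase, had 1.06 at 1 tested probe set and 2.31 at the other, where 1 C57BL/6 array was set to the limit (adjusted p = 0.105 and 0.119 from limma). With the replicate block, both probe sets of Prkcq and of Pik3cd and that of the phosphatase Ptpn6 passed in limma, 5 higher in all. Socs1 again passed as lower. The other lower ones at an unadjusted p under 0.05 belonged to Socs3 (log2 fold changes -0.79 and -1.06), Cish (-0.86) and Traf6 (-0.94). Each of these had at least 1 AND-TCR–transgenic array set to the limit, and another probe set of Socs3 had 0.61.

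Other genes of regulatory T cells gave a list of 20, of which 19 were on the arrays with 35 probe sets. Only 6 genes had a tested probe set, 13 in all, and none passed the test in limma, with 2 higher at an unadjusted p under 0.05 and none with the replicate block. These were Ikzf4, a transcription factor of the Ikaros family, whose log2 fold change was 0.92 at 1 of its 3 tested probe sets with 1 C57BL/6 array set to the limit (adjusted p = 0.204 from limma), and the cytokine Tgfb1 with 0.60 (adjusted p = 0.282 from limma). The other tested probe sets of Ikzf4 had 0.64 and 0.32. Nrp1 went the other way, with 1732.8 and 1962.2 in C57BL/6 against 1237.5 and 1229.1 (log2 fold change -0.58, adjusted p = 0.417 from limma). Nr4a1 had -0.58 at 1 probe set and 0.12 at the other. The median log2 fold change of the 13 probe sets was 0.14. The other 13 genes, among them Ikzf2, Entpd1, Ccr4, Ccr8, Lrrc32 and Il10, did not reach the limit on both arrays of either group. Gpr83, which is the next protein-coding gene to Izumo1r on chromosome 9, was also among them, with values of -131.5 to 110.8 on U74Av2. Foxp3 was not analysed here.

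Markers of the stages of thymocytes differed beside these genes. Of 24 tested probe sets for mature single-positive thymocytes, 8 were higher and none was lower in limma, with a median log2 fold change of 1.04. Sums of intensities, here and below, were taken with readings under the limit raised to it. They were 82183 to 84874 in C57BL/6 and 176895 to 182640 in AND-TCR–transgenic thymocytes. The 24 probe sets came from 14 of 17 listed genes. Of 19 tested probe sets for double-positive thymocytes, from 13 of 14 genes, 9 were lower and 1, of St6gal1, was higher, with a median of -1.09 and sums of 247458 to 253271 against 106638 to 113792. The higher single-positive markers were Gimap4, Gimap3 at both of its called probe sets, Slfn1, Ms4a4b, Cd53, Itgb7 and Slfn2, with log2 fold changes from 1.07 to 2.26. The authors had singled out Gimap4 and Gimap3, their IAN1 and IAN4, from these same hybridizations. Their calls are thus no separate support, and they enter the median and the sums. Ccr7 of this list missed the threshold (log2 fold change 2.01, adjusted p = 0.0510 from limma). Il7r had a negative value (-0.44, adjusted p = 0.537 from limma), as had a probe set of H2-K1 (-0.31). The lower double-positive markers were the recombinase genes Rag1 and Rag2, the coreceptor genes Cd8a and Cd8b1, Dntt, Arpp21, Aqp11, Ly6d and Endou, with log2 fold changes from -0.87 to -3.24. General T cell genes such as Cd3e, with log2 fold changes of 0.06 and -0.03, had a median of 0.09, and Cd2 was the 1 of their 13 tested probe sets to pass. The part of the stage markers in the Izumo1r result was not tested.

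Markers of other cells moved less. Of 12 tested probe sets for dendritic cells and macrophages none passed in limma and 3 were higher at an unadjusted p under 0.05. These belonged to the MHC class II genes Cd74, H2-Aa and H2-Eb1. The sums of this list were 21903 to 23889 in C57BL/6 and 30562 to 31458 in AND-TCR–transgenic thymocytes. The macrophage markers Adgre1 and Itgam were not above the limit on both arrays of either group. Cd68, Csf1r, Lyz2, Cd14 and C1qa of the same list exceeded it on both AND-TCR–transgenic arrays at a tested probe set. Among them, Cd68 was under the limit on both C57BL/6 arrays (213.8 and 393.7 against 473.6 and 643.9, adjusted p = 0.559 from limma). Of 11 for B cells none passed, and 2 were higher and 4 lower at an unadjusted p under 0.05. The lowest p was at a probe set of Ighm, which read 5664.4 and 6197 against 2819.8 and 1768.5. Its log2 fold change was -1.41 (adjusted p = 0.0555 from limma, and 0.00174 with the replicate block). The sums of the list were 36514 to 39573 against 31283 to 31338. Another Ighm probe set, with 19964.7 and 22304.7 against 16012.6 and 16775.6, made up most of them, so they mainly follow Ighm. Of 11 for double-negative thymocytes 1 of the 2 tested probe sets of Dtx1 was higher (log2 fold change 1.39, adjusted p = 0.0342 from limma, against 0.18 at the other). At an unadjusted p under 0.05 it was the only higher one, and 1 was lower, that of Cd24a (log2 fold change -0.54, adjusted p = 0.194 from limma). The sums of this list, 36094 to 39249 and 34966 to 40147, overlapped. None of the 5 for natural killer and gamma delta T cells, 3 for thymic epithelium and 2 for red blood cells passed in limma. At an unadjusted p under 0.05, 2 of the first list were higher, 0 of the second differed and 1 of the third was lower. The red blood cell sums were 11025 to 13237 in C57BL/6 and 6122 to 8435 in AND-TCR–transgenic thymocytes, and 1 of the 2 was lower with the replicate block. The sums of the first list overlapped, at 28136 to 30622 against 28427 to 29304. Those of thymic epithelium were 4501 to 4656 against 5255 to 5691. The part of these cells in the results was not tested.

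**Figure D4:**
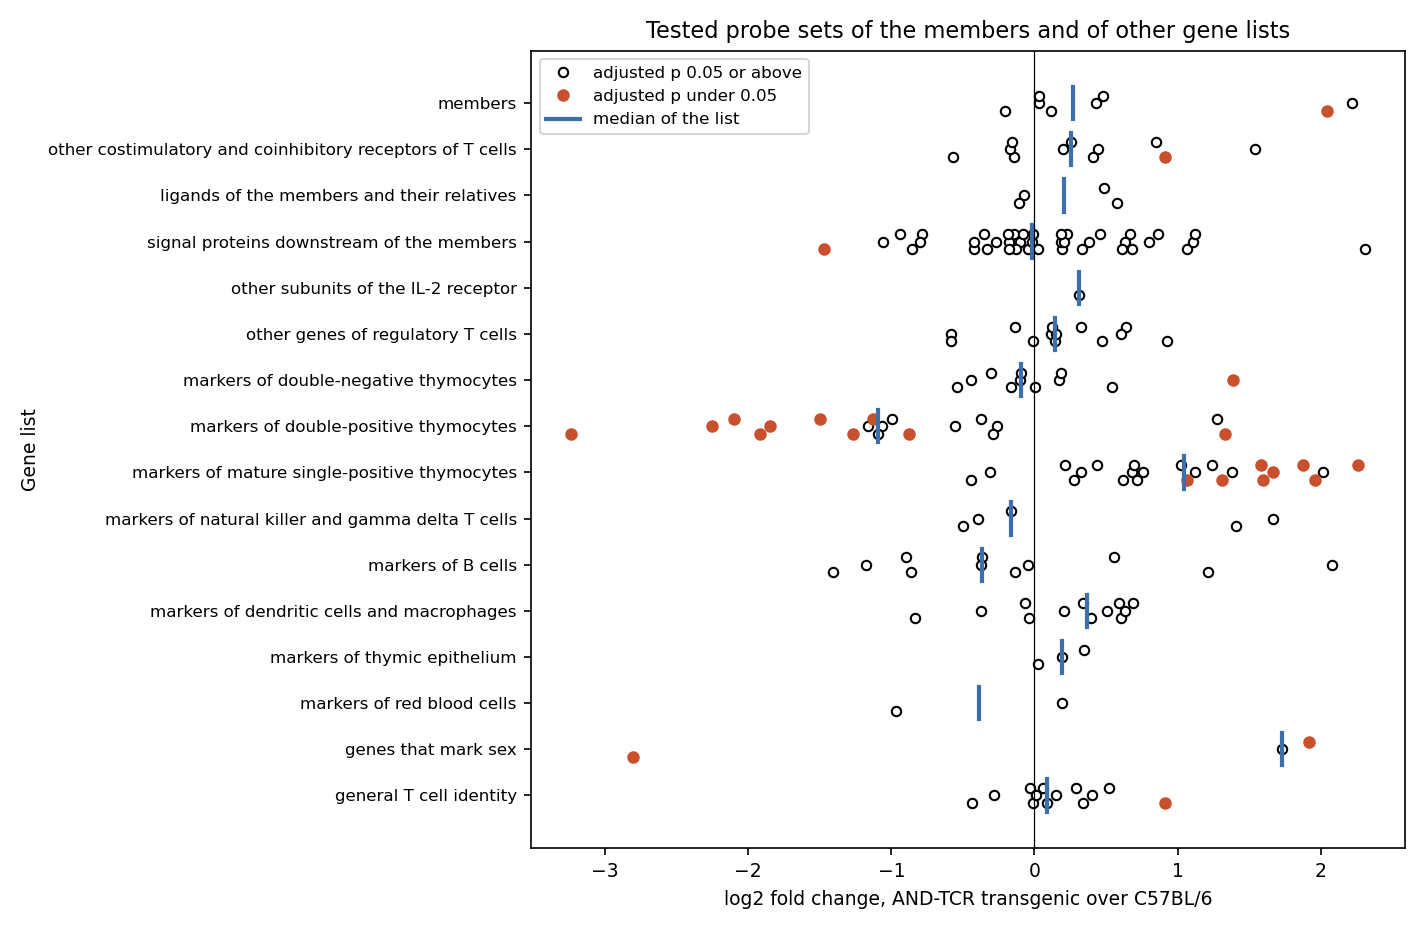
Log2 fold change, AND-TCR transgenic over C57BL/6 (x axis), for the tested probe sets of the 10 genes (top row, members) and of the other gene lists (y axis), 1 circle per probe set, filled where the adjusted p from limma was under 0.05, with a bar at the median of each list. The medians lie at 0.27 for the 10 genes, 1.04 for mature single-positive and -1.09 for double-positive thymocytes. That of the 10 genes includes Pdcd1 and Izumo1r probe set B, which were tested only because both AND-TCR–transgenic arrays exceeded the limit.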

How the data were processed

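Biotinylated targets from total RNA of thymocytes were hybridized by the authors, scanned by confocal laser and read out with Microarray Suite. They deposited linear intensities, negative ones included. The sources used here do not name the kind of value. After removal of the lowest and highest 2%, array means were 999.998 to 1000, so all arrays had been brought to a common level.

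Here each array was multiplied by 1 factor to equalize these means within its array type, by factors of 0.999999 to 1. The detection limit was 2 noise SDs, where a noise SD is 1.4826 times the median absolute negative reading. Control probe sets, 66 per array type, were not tested. The test was that of limma 3.58.1 under R 4.3.3 (lmFit, eBayes with a trend), 1 fit per array type, with Benjamini-Hochberg adjustment over the array types together, after a test of the procedure on simulated data. Names come from the platform's annotation. The promoter stretches come from RefSeq (GRCm38.p6). Of the genes, 8 had such a stretch, 9 in all. The 10 genes and the lists were chosen with earlier results of these data known. The text names every probe set of the 10 genes, the members of other lists that passed the test or up to 4 with the lowest p, and the 5 nearest patterns, while other list members were named after their values were seen. Python 3.11.15 with matplotlib 3.10.9 drew the figures.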

Additional observations from a re-analysis of the deposited data

How the results depend on the processing

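The count of member probe sets called higher was 1, and it was 2, both of Izumo1r, with the floor at 0.5 times the limit, with floor and filter at 2 times the limit, on an asinh scale without floor, without a filter and with the replicate block, and 0 without a trend or with adjustment within each array type. None was called lower under any of these settings. Without any 1 hybridization, where the lone array was assumed to vary like the others, the count was 0 to 0 in limma for the members and for all probe sets (62 higher and 73 lower with all arrays), while 1290 to 1969 of all probe sets had an unadjusted p under 0.05. Over all probe sets the counts of higher and lower calls were 130 and 140 with the floor at 0.5 times the limit, 138 and 153 on the asinh scale, 129 and 127 among those above the limit on all 4 arrays, 1 and 9 without a trend, and 151 and 148 with the replicate block. Without a filter they were 413 and 402, but over 50% of the residual variances were then exactly 0, which makes limma's variance estimate unreliable. With the block, U74Cv2 had 2689 degrees of freedom against 6.85 without it. The block changed no other member call. Izumo1r was positive in every setting in which it was tested, from 1.78 to 2.30 at probe set A and from 1.69 to 2.69 at probe set B. Without 1 hybridization the log2 fold change ran from -0.048 to 0.11 for Cd27 probe set A, from -0.64 to 0.23 for Tnfrsf4 and from -0.16 to 0.22 for Tnfrsf18, so these have no settled direction. The cause of these changes was not tested. Genes under the limit may differ between the groups by amounts these arrays cannot show.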

Other observations

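Among the marker lists of other cells, a few genes had larger differences than their list. Sox13, a transcription factor of gamma delta T cells, read 1980.7 and 1395.4 in C57BL/6 and 4082.4 and 4748.5 in AND-TCR–transgenic thymocytes (log2 fold change 1.41, adjusted p = 0.0530 from limma, and 0.00411 with the replicate block). The protease Gzma of cytotoxic lymphocytes read 820.7 and 1372.5 against 3337.2 and 3411.0 (log2 fold change 1.67, adjusted p = 0.0621 from limma, and 0.00470 with the replicate block). The kinase Blk, listed with the B cell genes, was under the limit on both C57BL/6 arrays at 1 probe set and read 1258.2 and 756.8 in AND-TCR–transgenic thymocytes. At its other tested probe set it read 1923.7 and 375.3 in C57BL/6, the second under the limit, and 3495.6 and 4127.4 in AND-TCR–transgenic thymocytes (adjusted p = 0.206 from limma, and 0.0152 with the replicate block). The B cell receptor subunit Cd79a read 919.8 and 985.9 in C57BL/6 and was under the limit in AND-TCR–transgenic thymocytes. The first probe set of Blk and that of Cd79a did not pass in limma (adjusted p = 0.173 and 0.111), nor with the replicate block (0.108 and 0.102).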
